A study of Mus musculus with 81 samples.

Results

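The RNA of P5 cells was compared between male fetuses of dams exposed to tributyltin (TBT) and male fetuses of vehicle-exposed dams, at single long terminal repeat (LTR) loci. P5 is the germ cell fraction that a side scatter gate separates from the other EGFP-positive fraction, P4, in cells of the fetal testis at E18.5, late in gestation. Its members are the 11 libraries labelled P5 in the F1 generation, out of 81 libraries of the whole series. In this set, 7 libraries came from the TBT group and 4 from the DMSO group. All animals carried the OG2 transgene, in which the Pou5f1 promoter and distal enhancer drive EGFP in germ cells, so the sorted cells are defined by that promoter's activity and not by a marker of 1 germ cell stage. The F0 dams of the TBT group drank water with 50 nM TBT from before mating until the fetuses were taken, those of the DMSO group drank water with the solvent alone, and the water of both groups contained carboxymethyl cellulose. The sires were not exposed. The labels give each library 2 numbers, of which the first is 43, 44 or 48 in the DMSO group and 45 or 47 in the TBT group. The sources do not say whether that first number is a dam or litter, so the p-values below measure the spread between these libraries, part of which may be technical, and the first number cannot be told apart from a shared litter.

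Endogenous retroviruses are remnants of germline infections by retroviruses. A full copy has an internal region, with the former viral genes, between a pair of LTRs that hold the promoter and the polyadenylation signal. Recombination between the LTRs leaves many solitary LTRs in the genome. Male fetal germ cells erase and then rebuild DNA methylation over these elements, and the piRNA pathway directs part of that rebuilding, which is why the elements are watched in this cell type after an exposure in utero. TBT is an organotin that binds the nuclear receptors RXR and PPARγ.

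The deposited table lists 970384 LTR loci of 680 species (the names that RepeatMasker gives to related repeats), 64.5% of them outside annotated genes, 33.0% in introns and 2.48% overlapping exons. Each library held 3935531 to 5761940 reads at these loci in the DMSO group and 3835481 to 5639202 in the TBT group. Levels are given as CPM (reads scaled to a common library size) after the authors' scaling or as whole reads recovered from them. DMSO library 44-1 stood apart from the other 10. It had reads at the fewest loci (185192), and 76.7% of its reads outside genes lay in loci with at least 10 reads, against 37.3% to 42.6% in the others. The number of called loci, the number of loci with reads, the median outside genes and the share of reads outside genes are given with and without it.

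The sequences of 4 single LTRs are printed here because they are among the 13 loci that passed the test below, 3 of them with the lowest p-values of the single LTRs and 1 as the second copy of the ORR1B1 species. Each is the plus strand of GRCm38 (RefSeq assembly), either whole or the central 300 bases, and capitals mark the polyadenylation hexamer AATAAA on either strand, since the libraries were primed with oligo(dT).
RLTR13C3, chr6:124783708-124784007: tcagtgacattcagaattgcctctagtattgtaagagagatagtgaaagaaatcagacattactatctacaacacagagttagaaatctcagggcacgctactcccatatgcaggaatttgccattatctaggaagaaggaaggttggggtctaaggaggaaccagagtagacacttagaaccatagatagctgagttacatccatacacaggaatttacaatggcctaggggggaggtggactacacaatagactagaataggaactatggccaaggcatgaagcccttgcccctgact
ORR1B1, chr5:148244037-148244319: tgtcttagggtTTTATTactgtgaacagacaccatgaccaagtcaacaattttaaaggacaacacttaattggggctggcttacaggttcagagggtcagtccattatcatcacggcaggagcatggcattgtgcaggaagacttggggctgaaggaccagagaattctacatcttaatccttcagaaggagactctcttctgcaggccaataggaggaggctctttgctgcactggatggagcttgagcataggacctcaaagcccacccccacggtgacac
MTC, chr4:133546875-133547174: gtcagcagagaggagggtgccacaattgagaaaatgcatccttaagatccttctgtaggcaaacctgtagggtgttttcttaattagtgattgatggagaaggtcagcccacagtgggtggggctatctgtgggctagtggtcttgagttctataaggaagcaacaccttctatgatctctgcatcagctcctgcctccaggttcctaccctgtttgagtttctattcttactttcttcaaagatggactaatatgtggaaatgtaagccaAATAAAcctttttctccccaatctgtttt
ORR1B1, chr19:56823167-56823466: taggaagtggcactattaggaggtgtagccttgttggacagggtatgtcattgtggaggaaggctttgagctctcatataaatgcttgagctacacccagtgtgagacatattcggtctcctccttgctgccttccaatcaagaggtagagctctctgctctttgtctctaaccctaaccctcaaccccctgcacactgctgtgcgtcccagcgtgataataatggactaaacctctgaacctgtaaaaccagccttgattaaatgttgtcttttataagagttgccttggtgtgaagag
The ORR1B1 copies lie on opposite strands, and 206 of their 258 aligned bases were identical (79.8%). The hexamer was found in the central 300 bases of 4 of the 11 called loci for which such a window was read, and in 35.8% of 7474 windows of the same length from tested loci outside genes. The nuclear receptor motif AGGTCA was found in 4 of the 11 windows and in 1383 of the 7474 windows, and its direct repeat with 1 base between (AGGTCA, any base, AGGTCA), in 0 of the 11 and in 0.0669% of all. These matches were counted on both strands and describe letters only.

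At single loci, 13 were higher in the TBT group and 0 were lower at a false discovery rate (FDR) under 0.05, of the 122303 loci whose mean reached 5 units, or 0.0106% of those tested (limma with trended variance on log2(CPM + 1 unit), Benjamini-Hochberg over all loci tested). A unit is 0.181 CPM, the value of 1 read in the median library, and fold changes below are on that scale, which understates the change of low loci. The count depended on the libraries and the test. Leaving out 1 library gave 4 (without 47-3) to 81 (without 48-4) higher loci and 0 to 13 lower ones, and averaging libraries by first label number gave 0, with log2 fold changes of 1.47 to 4.33 at the 13 loci against 1.62 to 4.38 with single libraries. Without library 44-1, 20 loci were higher and 9 of the 13 stayed called. Of the 13, 9 had a DMSO mean under 5 units and so passed the minimum mean through the TBT libraries. With the 2 groups weighing alike in the minimum, the same 13 loci were called and 0 lower ones. With the minimum set in each group, 4 of the 13 were tested and 2 called (MTC and ORR1B1 on chromosome 5), with 0 lower. Both filters were chosen after the data were seen. At an unadjusted p under 0.05, 5672 loci were higher (4.64%) and 2749 lower (2.25%), and with the minimum set in each group 3577 (3.25%) and 2405 (2.19%). The 13 loci lay on 10 chromosomes and belonged to 11 species, with 3 loci of the ERV1 family, 5 of ERVK, 1 of ERVL and 4 of the non-autonomous MaLR family. They comprised 6 LTRs and 7 internal regions, 10 of them outside genes and 3 in introns. In all 13 the lowest TBT library was above the highest DMSO library, a separation that 603 tested loci showed in this direction (0.493%) and 480 in the opposite one (0.392%). As RNA was extracted from sorted pools of cells, more expressing cells and more RNA per cell cannot be told apart.

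Among the LTRs, the lowest p-value belonged to an RLTR13C3 copy at chr6:124783420-124784295, 3693 bp from Lrrc23, a gene of the sperm flagellum. It had 0 reads in all 4 DMSO libraries and 14, 16 and 39 reads as the lowest, median and highest TBT values (3.89 ± 2.01 CPM, SD, n = 7). The groups did not overlap, and the TBT mean was at least 6.38-fold higher than the mean of a floor of 3 reads per DMSO library (limma FDR 0.000642). An ORR1B1 copy, a MaLR element, lay at chr5:148244037-148244319 in an intron of Mtus2, which encodes a microtubule-associated protein. The DMSO libraries had 24, 10, 22 and 25 reads (4.02 ± 1.40 CPM, SD, n = 4) and the TBT libraries 59, 85 and 106 (16.9 ± 5.85 CPM, SD, n = 7). No library of one group reached the other, and the log2 fold change was 2.02 ± 0.27 (SE, limma FDR 0.00612). The sum of all LTR loci in Mtus2 is given with the genes below.

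An MTC copy at chr4:133546840-133547210, 844 bp from Nudc, a gene of nuclear migration and mitosis, had the most reads of the 13. Its DMSO libraries held 40, 38, 82 and 82 reads (11.6 ± 2.75 CPM, SD, n = 4), and its TBT libraries 139, 175 and 239 (36.5 ± 10.7 CPM, SD, n = 7). Every TBT library was above every DMSO library, with a log2 fold change of 1.62 ± 0.21 (SE, limma FDR 0.00612), the smallest of the 13. A second ORR1B1 copy, at chr19:56823137-56823496 and 947 bp from Ccdc186, had 0, 4, 0 and 1 reads in the DMSO libraries and 8, 17 and 29 in the TBT libraries (limma FDR 0.0260). An RMER19B2 copy at chr8:59418031-59418669, 637 bp from the non-coding gene Gm34370, had 2 reads over the DMSO libraries, all in library 48-4, and 4, 15 and 30 in the TBT libraries. With so few DMSO reads its ratio of pooled reads was 33.1 (95% exact counting interval 8.95 to 276). That interval takes reads as independent, and is too narrow where reads were counted in pairs, as described below. An RMER10A copy at chr10:82082633-82083062, 291 bp from BC024063, had 3 DMSO reads in all and 7, 15 and 22 in the TBT libraries, a ratio of 17.6 (5.84 to 86.8, limma FDR 0.0359).

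Among the internal regions, 2 were of RLTR1B-int, a gammaretrovirus-like ERV1 species. The copy at chr1:7739558-7742061 was far from genes, with Gm30414 the nearest at 221409 bp. It had 0, 0, 2 and 14 reads in the DMSO libraries and 22, 42 and 75 in the TBT libraries, a log2 fold change of 4.17 ± 0.57 (SE, limma FDR 0.00673). The copy at chr13:70486709-70488235, 63472 bp from Ice1, a gene of small nuclear RNA transcription, had 4, 0, 7 and 2 reads against 9, 27 and 44 (limma FDR 0.0286). Both copies had DMSO reads in some libraries, and in neither did the groups overlap.

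The ERVK internal regions were 3. An MMERVK9C_I-int copy at chr4:108156813-108159179, 6258 bp from Echdc2, had reads in 1 DMSO library only, 6 in library 43-4, and 7, 24 and 30 in the TBT libraries (limma FDR 0.0352). An IAP1-MM_I-int copy, an intracisternal A particle, at chr6:104704407-104707322 in an intron of the neural adhesion gene Cntn6 had 2, 2, 0 and 17 reads in the DMSO libraries and 23, 31 and 129 in the TBT libraries (limma FDR 0.0359). An ETnERV2-int copy on chromosome 18, 53170 bp from the chromatin gene Epc1, had 6 reads in DMSO library 48-4, 0 in the other 3 and 6, 18 and 28 in the TBT libraries (limma FDR 0.0359). At that locus the lowest TBT library and the highest DMSO library had equal reads and differed in CPM only by their scaling.

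The longest of the 13, a MURVY-int copy of 4690 bp at chr11:54035346-54040035, 7256 bp from the carnitine transporter gene Slc22a4, had 18, 10, 6 and 12 reads in the DMSO libraries and 29, 41 and 70 in the TBT libraries. Its log2 fold change was 1.84 ± 0.30 (SE, limma FDR 0.0403). An ORR1C1-int copy at chr11:69488828-69489950 in an intron of Dnah2, an axonemal dynein gene, had 1 read over the DMSO libraries and 9, 15 and 24 in the TBT libraries, a ratio of 61.1 (10.7 to 2435) (limma FDR 0.00612). Run on the recovered reads, edgeR's likelihood ratio test, which the study's methods name, also passed all 13, among 310 higher and 81 lower loci of its own. DESeq2 passed 12 of them, among 116 higher and 24 lower, and edgeR's quasi-likelihood test called 4 loci, all among the 13: RLTR13C3, ORR1B1 on chromosome 5, MTC and ORR1C1-int.

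**Figure D1:**
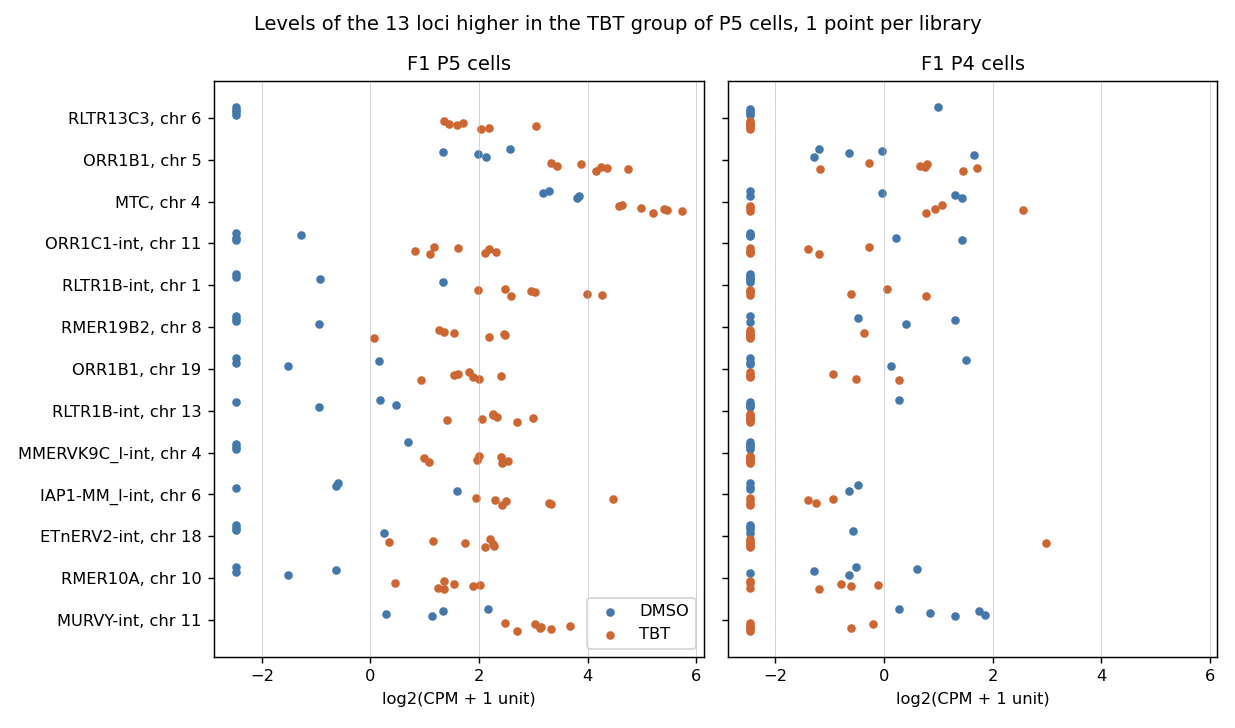
Level of each of the 13 loci in every library, as log2(CPM + 1 unit) with 1 unit = 0.181 CPM, 1 point per library, DMSO in blue and TBT in orange, for P5 cells (left, 4 and 7 libraries) and P4 cells (right, 5 and 7). The points at the far left are libraries with 0 reads. The 2 groups separate at all 13 loci in P5 cells, while in P4 cells no library reaches more than 31 reads. The loci were chosen for their difference in these P5 libraries, so their separation there is not a further result.

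The same 13 loci had few reads in P4 cells, whose libraries were scaled in the same table. P4 libraries had 1.83% to 2.51% of their reads outside genes, and P5 libraries 3.84% to 7.34%. The highest value was 14 reads in a DMSO library, at MURVY-int, and 31 in a TBT library, at ETnERV2-int, where the other 6 TBT libraries of P4 cells had 0. MMERVK9C_I-int had 0 reads in all 12 P4 libraries. In EGFP-negative P6 cells of the same generation, the RLTR13C3 copy had reads in 2 of 7 TBT libraries and in 0 DMSO libraries. These were 20 reads in library 7 and 2 in library 9. Loci outside genes held 6.79% of the reads in library 7 and 6.95% in TBT library 8. The remaining P6 libraries ranged from 0.999% to 1.82%. Whether this bears on the RLTR13C3 reads was not tested. The MURVY-int copy had 0 reads in every P6 library. In P5 cells of the F3 generation, normalized in another table, the TBT mean was higher at 5 of the 13 loci and lower at 8, and the groups did not separate at any of them. In that set, DMSO libraries 1 and 2 had 23.5% and 27.9% of their reads outside genes, and DMSO libraries 3 and 4 8.75% and 6.12%. The TBT libraries had 6.06% to 31.1%. How these shares bear on the 13 loci was not tested. TBT library 5 of that set held 246520 reads, against 1606422 to 8161548 in the other 8, and had 0 reads at 12 of the 13 loci. Without it, a choice made after the data were seen, the TBT mean was higher at 7 loci and lower at 6. The groups then separated at 1 locus, the ORR1B1 copy on chromosome 19, with the TBT group higher. There the lowest remaining TBT library and the highest DMSO library each had 8 reads and differed in CPM only by their scaling. How many of all loci separated in F3 without TBT library 5 is not given here.

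Differences at single loci are described next by the place of the locus. Of the 10043 tested loci outside genes, 15.7% were higher and 2.57% lower at an unadjusted p under 0.05, against 3.43% and 2.21% of 104518 loci in introns and 6.65% and 2.38% of 7742 in exons. The median log2 difference was 0.37 outside genes, 0.01 in introns, 0.07 in exons and 0.03 over all tested loci. These shares and medians are descriptions with no test, because a locus can pass the minimum mean through the 7 TBT libraries alone. With the groups weighing alike in the minimum, an alternative chosen after the data were seen, the median outside genes was 0.25 over 9873 loci, and with the minimum set in each group it was 0.21 over 6560, with 62.6% of loci above 0. In introns both values were 0.00. With the minimum set in each group, the shares higher and lower at an unadjusted p under 0.05 were 9.19% and 2.80% outside genes, 2.79% and 2.15% in introns and 5.03% and 2.39% in exons.

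Outside genes, the median was 0.57 for loci over 1500 bp and 0.29 for those up to 300 bp, and 0.50 for internal regions against 0.33 for LTRs. By distance to the nearest gene it was 0.42 within 5 kb, 0.33 from 5 to 20 kb, 0.36 from 20 to 50 kb and 0.37 beyond 50 kb. By family it was 0.48 for ERV1, 0.39 for ERVK, 0.29 for ERVL and 0.33 for MaLR. The median fell with the reads behind a locus, from 0.44 at a mean of up to 10 reads to 0.29, 0.27 and 0.10 at means of 10 to 20, 20 to 50 and over 50 reads. Without library 44-1 the median outside genes was 0.32 and without library 48-4 it was 0.34.

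**Figure D2:**
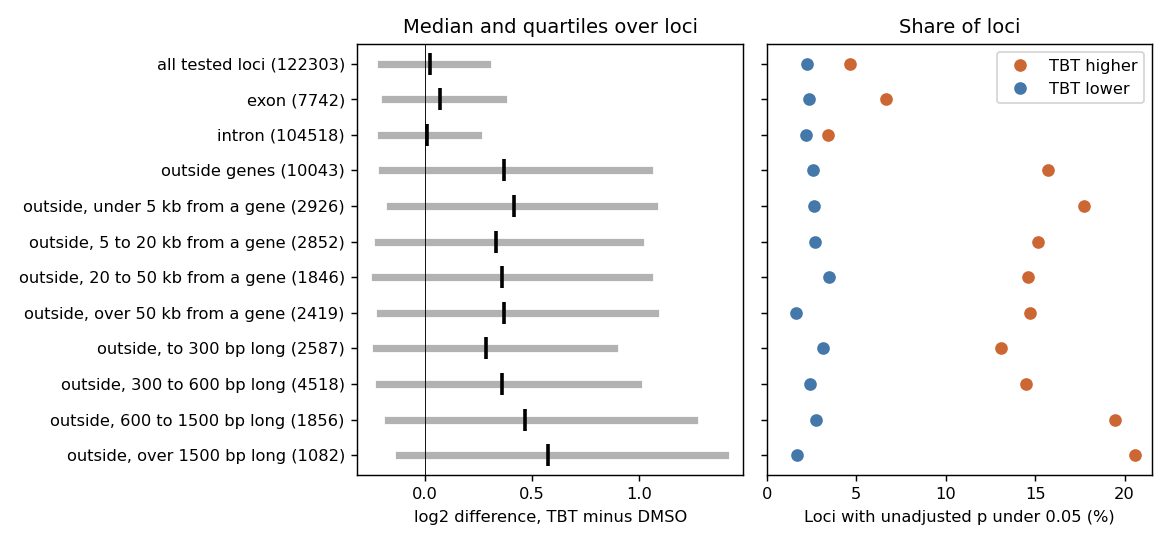
Left, median (black mark) and quartiles (grey bar) over tested loci of the log2 difference TBT minus DMSO in P5 cells, by place, distance to the nearest gene and length, with the number of loci in brackets. Right, percent of those loci with an unadjusted p under 0.05, TBT higher in orange and TBT lower in blue. All classes outside genes have medians between 0.29 and 0.57 and more loci higher than lower, while the intron median is 0.01.

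More loci outside genes had reads at all in the TBT group. The DMSO libraries had reads at 45011, 40193, 30426 and 47121 such loci and the TBT libraries at 53188, 63431 and 90759 (lowest, median, highest). All 7 TBT libraries were above all 4 DMSO libraries. The means were 40688 ± 7430 (SD, n = 4) and 65374 ± 11987 (SD, n = 7), a ratio of 1.61, or 6.50% ± 1.19 and 10.4% ± 1.91 of the loci outside genes (two-sided exact permutation test, p = 0.00303, the smallest that 330 regroupings allow). When each library was brought to the lowest number of reads, 3835481, the expected ratio was 1.56 with the same p. Without library 44-1 the ratio was 1.48 as counted and 1.44 at the lowest number of reads (exact p = 0.00833 for each, the smallest that 120 regroupings allow). Averaged by first label number, 3 DMSO values against 2 TBT values gave a ratio of 1.63, with an exact p of 0.1, the smallest that 10 regroupings allow.

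The count was repeated with more reads asked of a locus. For loci with at least 3 reads the ratio was 1.34 (exact p = 0.0212, 6 of 7 TBT libraries above every DMSO library) and 1.36 without library 44-1 (exact p = 0.0417). For loci with at least 10 reads it was 0.964 with all libraries (exact p = 0.909) and 1.39 without library 44-1 (exact p = 0.0667), so its direction turned on that library. In introns the ratio of loci with reads was 1.07 (exact p = 0.1) and 1.04 without library 44-1 (exact p = 0.275). In exons it was 1.13 (exact p = 0.0273) and 1.08 without that library (exact p = 0.0917), so the call in exons was lost. Outside genes, a count of 2 was 1.66 to 2.33 times as frequent as a count of 1, so reads may be counted in pairs and 2 reads are not 2 independent molecules.

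The same count was made in P4 cells of the same table. Their DMSO libraries had reads at 13865 to 22310 loci outside genes and their TBT libraries at 14286 to 23082, a ratio of 1.04 (exact p = 0.723). Whether DNA carried into the RNA, a difference in the sort or transcription of the loci moved with this number was not tested.

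**Figure D3:**
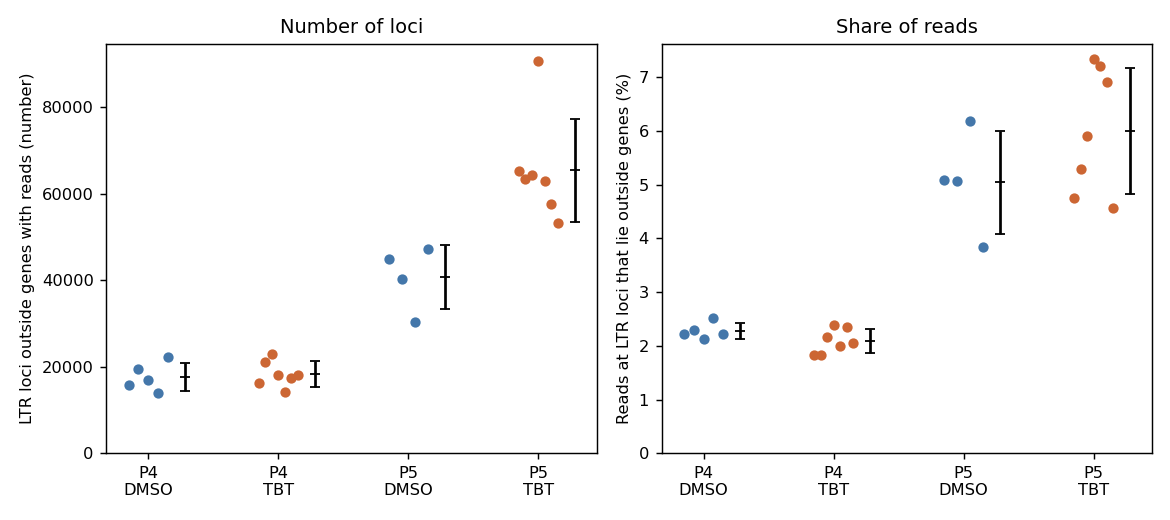
Left, number of LTR loci outside genes with at least 1 read in each F1 library; right, percent of a library's reads at LTR loci that lie outside genes, for P4 and P5 cells of the DMSO (blue) and TBT (orange) groups. Each point is a library, and the bar gives the mean and SD. On the left all 7 TBT libraries of P5 cells lie above all 4 DMSO libraries, while on the right the groups overlap.

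The share of reads at loci outside genes was 5.04% ± 0.956 in the DMSO group (SD, n = 4) and 5.998% ± 1.17 in the TBT group (SD, n = 7), and the groups overlapped (two-sided exact permutation test, p = 0.203). The difference was 0.960 percentage points with all libraries, 0.559 without library 48-4 and 1.34 without library 44-1, the range over leaving out 1 library. The share in introns was 87.6% and 86.7% (exact p = 0.224) and in exons 7.34% and 7.32% (exact p = 0.767). The number of loci with reads passed its test and the share of reads did not.

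No sum over a repeat group passed a test. In the authors' scaling, which left the library totals 0.03 higher on the log2 scale in the TBT group, the 21 group totals had log2 differences from 0.02 to 0.28 with a median of 0.07 (lowest adjusted p 0.764 by exact permutation, Benjamini-Hochberg over the 21). Restricted to loci outside genes, the differences were 0.07 to 0.56 with a median of 0.29 (lowest adjusted p 0.276), and 0 groups had an unadjusted p under 0.05 in either set. With libraries at a common total the range was −0.02 to 0.25, with 15 groups above 0, 6 below and 1 at an unadjusted p under 0.05, and outside genes it was 0.04 to 0.53. MMERGLN, a gammaretroviral group with a glutamine tRNA primer site, had 276, 246, 284 and 224 CPM outside genes in the DMSO libraries and 223, 375 and 611 in the TBT libraries, so that 6 of 7 TBT libraries were above every DMSO library but 1 was below them all. RLTR1 had 659.6, 639.5, 829 and 613 CPM against 555, 951 and 1794, also overlapping. The IAP internal regions totalled 5171 ± 237 CPM (SD, n = 4) and 5638 ± 751 (SD, n = 7), and MERVL with its LTR MT2_Mm, an element known from early embryos, 10012 ± 442 and 10535 ± 1043.

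**Figure D4:**
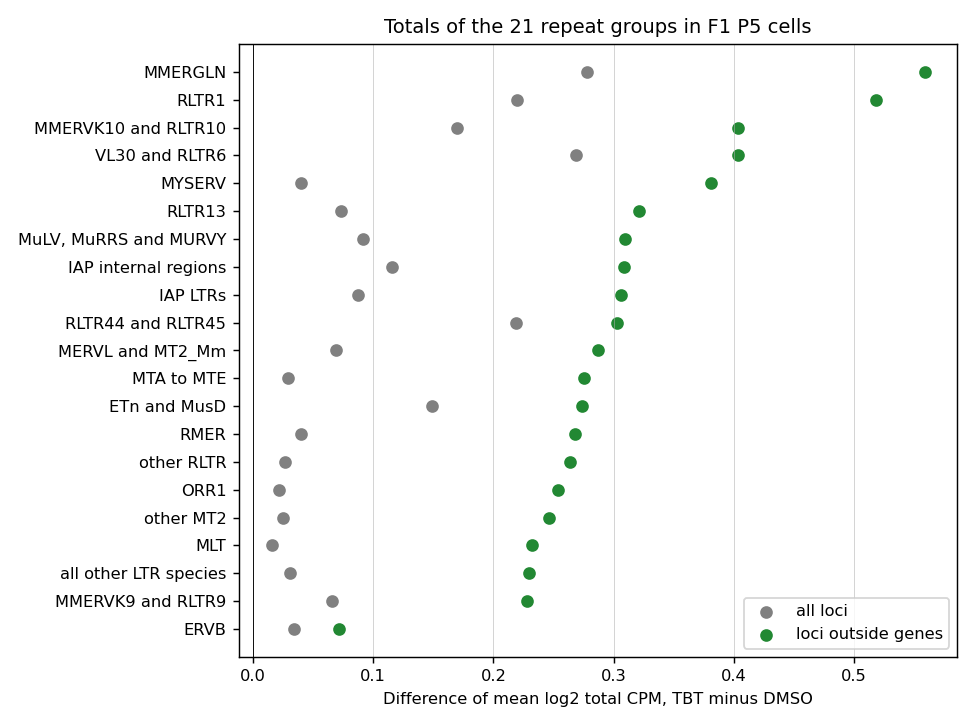
Difference of mean log2 total CPM, TBT minus DMSO, for the 21 repeat groups in P5 cells, over all loci (grey) and over loci outside genes only (green). In the authors' scaling the grey points lie between 0.02 and 0.28 and the green ones between 0.07 and 0.56, and no group passed the exact permutation test. With libraries at a common total, 6 of the 21 grey values fall below 0 and the green ones stay above it.

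Of 668 species totals, 0 passed an FDR under 0.05 (limma, lowest FDR 0.897), with 29 higher (4.34%) and 3 lower (0.449%) at an unadjusted p under 0.05 and a median of 0.03. The lowest p-values among higher totals belonged to RLTR9D2 (119 ± 9.59 CPM, SD, n = 4, and 141 ± 10.9, SD, n = 7, log2 0.24 ± 0.08 SE), RLTR1F_Mm (0.43 ± 0.14 SE), ERVB2_1-I_MM-int (0.56 ± 0.19 SE), RLTR13D3A (0.28 ± 0.10 SE) and MER83B-int (0.98 ± 0.35 SE). The 3 lower totals were LTR103b_Mam (−0.43 ± 0.15 SE), LTR27C (−1.12 ± 0.48 SE) and RLTR12F (−0.35 ± 0.16 SE). LTR27C was a small total, 1.88 ± 0.569 CPM (SD, n = 4) against 0.896 ± 0.720 (SD, n = 7). Counting loci outside genes only, 0 of 615 totals passed (lowest FDR 0.0545), 61 were higher (9.92%) and 1 lower unadjusted, and the median was 0.26.

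The study named species by how often their single loci were among its differentially expressed ones, beyond random extraction, and not by totals. The totals below are another measure than the study's. The species that the study names as up-regulated were chosen by it on these libraries among others, so their direction here is not independent evidence. All 8 named only as such had positive differences, as had 73.2% of the 668 totals (median 0.28, against 0.03 over all species), and 4 of them had an unadjusted p under 0.05. With libraries at a common total 7 of the 8 were positive, against 50.9% of all. The RLTR1B-int total was 860, 700.2, 934 and 691 CPM in the DMSO libraries and 758, 1028 and 1651 in the TBT libraries, and the groups overlapped (log2 0.41 ± 0.18 SE, limma FDR 0.897). Of its signal, 50.1% lay outside genes. The MMERVK10C-int total was 1207 ± 89.4 CPM (SD, n = 4) and 1527 ± 435 (SD, n = 7), with the 2 highest TBT values, 2195 and 2049, in libraries 47-4 and 47-5. Of the 8 named only as down-regulated, 4 were positive and 4 negative (median 0.01), and 0 had an unadjusted p under 0.05. ERVB4_1B-I_MM-int had 543 ± 109 CPM (SD, n = 4) and 478 ± 68.0 (SD, n = 7).

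Genes were read through the sum of the LTR loci inside them, which is mostly intron and does not replace an exon count. The reads carry no strand in these files, so an antisense transcript cannot be told from its host gene. Of 13531 gene sums, 0 passed an FDR under 0.05 (limma, lowest FDR 0.2503), with 825 higher (6.1%) and 281 lower (2.08%) unadjusted and a median of 0.06. Mtus2, host of the ORR1B1 copy on chromosome 5, had 177, 124, 156 and 115 CPM in the DMSO libraries and 200.1, 239.9 and 287 in the TBT libraries, with no overlap (log2 0.75 ± 0.15 SE, limma FDR 0.2503). Dnah2 (0.47 ± 0.31 SE) and Cntn6 (0.28 ± 0.28 SE) overlapped between groups. The share of all 13531 sums without overlap is not given, so a lack of overlap at a named gene is a description.

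Of 18 germ cell genes, 11 held an LTR locus, through which alone a gene can be seen here, and 9 were tested, with 0 higher and 0 lower unadjusted and a median of 0.06. Ddx4, a germ cell RNA helicase, had 1305 ± 139 CPM (SD, n = 4) and 1353 ± 257 (SD, n = 7), and Dazl, a germ cell RNA-binding protein, 345 ± 14.8 and 327 ± 52.4. Kit, the receptor of stem cell factor, had 114 ± 27.3 and 114 ± 33.1. These 3 had reads in every library of both groups, whereas Prdm14, a regulator of early germ cells, had 0 to 36 reads in the DMSO libraries and 6 to 38 in the TBT libraries. These values do not tell P5 cells from P4 cells.

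Sertoli cell genes had lower mean values in the TBT group. Of 10 genes, 7 were tested, and 0 had a positive and 7 a negative difference (median −0.89), 3 with an unadjusted p under 0.05 and 0 past the FDR. Over all 13531 gene sums, 57.2% had a positive difference and 2.08% were lower at an unadjusted p under 0.05. Inha, the inhibin alpha subunit, had 35.6, 79.6, 55.3 and 13.8 CPM in the DMSO libraries and 5.22, 9.13 and 19.4 in the TBT libraries (log2 −1.85 ± 0.45 SE, limma FDR 0.302). Dhh, a secreted ligand of Sertoli cells, had 3.59, 8.87, 6.72 and 2.19 CPM against 0.652, 1.36 and 3.18 (−1.66 ± 0.51 SE), and Gata4, a gonadal transcription factor, 48.3 ± 21.8 (SD, n = 4) against 26.2 ± 6.57 (SD, n = 7) (−0.78 ± 0.32 SE). In all 3, DMSO library 48-4 lay within the range of the TBT libraries. The sums of Inha and Dhh each rest on 1 LTR locus. That of Dhh had 13 to 39 reads in the DMSO libraries and 3 to 18 in the TBT libraries. The summed level of the list, most of it Dmrt1, which germ cells also express, was 593 to 923 CPM in the DMSO group and 506 to 1122 in the TBT group. P5 cells were gated on EGFP, which Sertoli cells lack, and how these markers bear on the loci above was not tested.

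Of 4 tested Leydig cell genes, Nr5a1, a steroidogenic transcription factor, was lower unadjusted (10.8 ± 6.19 CPM, SD, n = 4, against 5.16 ± 2.32, SD, n = 7), while Cyp11a1 and Cyp17a1, steroid-making enzymes, had −0.01 and 0.06 on the log2 scale. The list median was −0.21 and its sum 25.6 to 67.7 CPM against 12.6 to 50.2. Of 8 tested interstitial, vascular and blood genes, 0 had an unadjusted p under 0.05 and the median was 0.02.

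Of 19 tested genes that silence retroelements, 1 was higher and 1 lower at an unadjusted p under 0.05, and the median was 0.07. Trim28, the corepressor that binds KRAB zinc finger proteins, had 1, 0, 6 and 14 reads at its LTR loci in the DMSO libraries and 2, 16 and 29 in the TBT libraries (log2 1.98 ± 0.78 SE, limma FDR 0.517), a count too low to stand for the gene. Hells, a chromatin remodeller needed for DNA methylation of repeats, had 88.5, 77.5, 84.0 and 78.7 CPM against 41.7, 65.1 and 76.6, and the highest TBT library was below the lowest DMSO library (−0.40 ± 0.17 SE, limma FDR 0.5679). Morc1, a germ cell factor of transposon silencing, had 2085 ± 453 CPM (SD, n = 4) and 2655 ± 1103 (SD, n = 7), with 0.29 ± 0.24 (SE).

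Of 17 tested piRNA pathway genes, 2 were higher unadjusted and 0 lower, with a median of 0.16. Spocd1, which links nuclear piRNAs to DNA methylation, had 7.17, 20.1, 6.72 and 9.08 CPM in the DMSO libraries and 11.5, 21.7 and 29.4 in the TBT libraries (log2 1.09 ± 0.33 SE, limma FDR 0.384), and 4 of the 7 TBT libraries were above every DMSO library. Tdrd9, a Tudor domain helicase, had 1583, 1631, 1639 and 2164 CPM against 1652, 2429 and 2999 (0.38 ± 0.16 SE, limma FDR 0.561). Mael and Mov10l1, of the piRNA machinery, had −0.02 ± 0.16 (SE) and 0.14 ± 0.19 (SE).

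Of 14 tested genes of TBT receptors and their targets, 2 were higher and 2 lower unadjusted, with a median of 0.14. Rxrg, a receptor of the RXR class, had 50.0, 36.4, 49.8 and 40.4 CPM in the DMSO libraries and 17.2, 26.4 and 34.98 in the TBT libraries, all 7 below every DMSO library (log2 −0.76 ± 0.21 SE, limma FDR 0.341). Lpl, a lipoprotein lipase, had 5.50, 26.4, 16.4 and 6.73 CPM against 1.59, 5.87 and 8.13 (−1.25 ± 0.49 SE, limma FDR 0.515). Pparg, the adipogenic receptor to which TBT binds, had only 5, 5, 0 and 0 reads against 4, 9 and 15, and Rara, a retinoic acid receptor, 2.47 ± 1.58 CPM (SD, n = 4) against 4.34 ± 0.794 (SD, n = 7) (0.99 ± 0.44 SE, limma FDR 0.578). Of 5 tested stress genes only Atf3, a stress-induced transcription factor, had an unadjusted p under 0.05 (12, 6, 0 and 78 reads against 18, 48 and 81), and Mdm2 and Hmox1 had −0.00305 ± 0.138 (SE) and −0.03 ± 0.24 (SE).

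**Figure D5:**
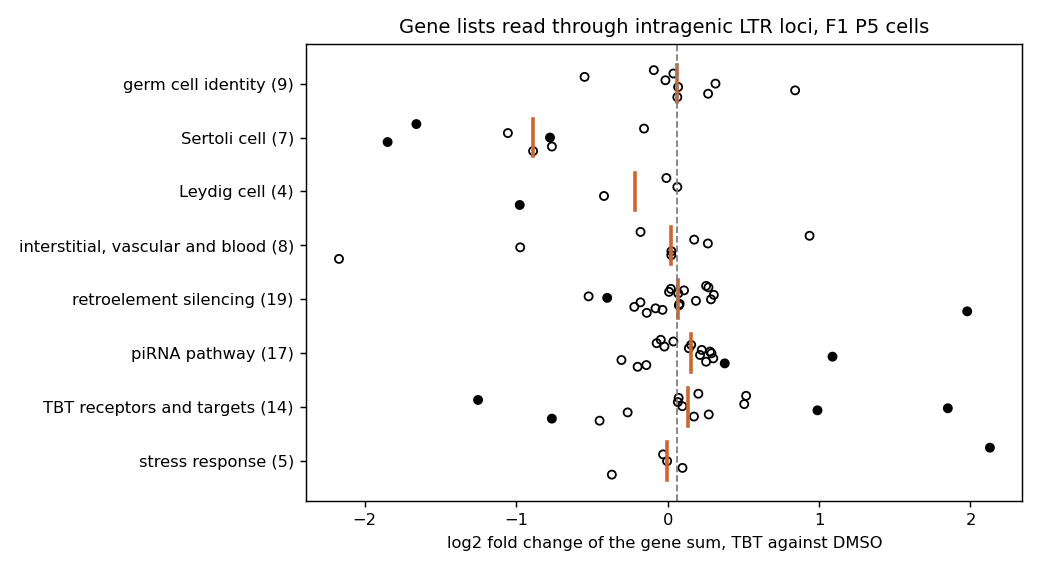
Log2 fold change, TBT against DMSO in P5 cells, of the LTR sum inside each gene of 8 lists, 1 circle per gene, filled where the unadjusted limma p is under 0.05, with the number of tested genes in brackets. The orange mark is the list's median and the dashed line the median of all 13531 gene sums, 0.06. The 7 Sertoli genes lie below 0 with a median of −0.89, and the other medians lie between −0.21 and 0.16.

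The effect of TBT in P5 cells was set against that in P4 cells with an interaction term over all F1 germ cell libraries. Of 101401 loci, 1 passed an FDR under 0.05 (0.000986%), the MURVY-int copy on chromosome 11, and 4384 had an unadjusted p under 0.05 (4.32%), of which 2382 had the larger effect in P5 cells (2.35%). It had 18, 10, 6 and 12 reads in DMSO and 29, 41 and 70 in TBT libraries of P5 cells, but 4, 12, 7, 14 and 10 in DMSO and 0, 0 and 4 in TBT libraries of P4 cells, so that the TBT group was higher in P5 and lower in P4 cells. The difference of the effects was 4.67 ± 0.60 on the log2 scale (SE, limma FDR 0.000413). The other called loci were chosen for their effect in the same P5 libraries, so their differences are a description, for example 4.69 ± 0.91 for RLTR13C3 (SE, limma FDR 0.147) and 4.75 ± 0.94 for RMER19B2 (SE, limma FDR 0.175). With the label number as a block, 8 loci passed, among them these 2 (FDR 0.0413 each), an RLTR1B-int copy at chr1:161314828-161315754 (4.53 ± 0.81, SE) and 3 loci in Rbm28 with near-equal read counts (medians of 22.5 reads in DMSO and 51 in TBT libraries of P5 cells at each). A fit on the differences within label numbers passed 5 higher loci and 1 lower one, MURVY-int and the RLTR1B-int copy among them, but not RLTR13C3 (FDR 0.188), RMER19B2 or the 3 loci in Rbm28 (FDR 0.0840 each). Of 664 species totals, 0 passed and 16 had an unadjusted p under 0.05 (2.41%). The median difference between the populations' effects was 0.24 for loci outside genes and −0.02 for loci in introns, the populations sharing no library. These too are descriptions, since a locus can pass the minimum through 1 group. Over the 2333 loci outside genes whose mean reached 5 units (of 0.181 CPM) in each of the 4 groups, a filter chosen after the data were seen, the median was 0.08, and −0.03 in introns.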

How the data were processed

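RNA of P5 cells was read with an oligo(dT)-primed low-input kit. The authors aligned reads to GRCm38/mm10 with STAR, counted them over RepeatMasker LTR loci with a modified ERVmap and scaled them by TMM. The deposited values are a signal, read as CPM after that scaling, in which 100% of values were whole multiples of the column's smallest value within 0.1, so whole reads were recovered by that division. The depth was 3835481 to 5761940 reads per library, and intervals cover counting error only, taking reads as independent. Starts in the table count from 0 (85.6% of 1800 LTRs on chromosome 1 then begin with TG), and positions are printed from 1. The 9 columns of F3 P4 cells in the tables were not used.

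Groups came from the sample labels. Log2(CPM + 1 unit) was tested with limma 3.58.1 (trended variance, R 4.3.3) over loci, species or genes whose mean reached 5 units, with Benjamini-Hochberg adjustment, and single values with two-sided exact permutation tests. Gene places came from a GENCODE annotation of the same build. edgeR 4.0.16 and DESeq2 1.42.0 were run on recovered reads as alternatives, and the fits were tested on simulated data. Names were drawn from every called locus, the 5 species with the lowest p in each direction at an unadjusted p under 0.05, the species the study names, the host genes, and in each gene list those with an unadjusted p under 0.05 and the 3 with the highest mean. Not all of the study's species and of the most abundant list genes are printed. The members and lists were chosen with earlier results of these data known, the MMVL30 species was moved to the VL30 group after values were seen, and other genes are named where a count of 5 or fewer needs them. The sources do not say that same-numbered P4 and P5 libraries came from 1 fetus. Their deviations correlated at −0.00555 to 0.217, over 0.1 in 5 of 11 pairs. The fit without a block was kept as main, and the fits that pair by number are given beside it.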

Additional observations from a re-analysis of the deposited data

Results flagged for a closer look

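In the 202 groups of values examined, 20 single libraries (9.9%) lay far from the rest of their group, where chance flags about 1 in 20 groups. At the called loci, TBT library 47-3 had 8.14 CPM of RLTR13C3 on chromosome 6 (the other 6 had 2.38 to 4.39), TBT library 45-4 had 21.98 CPM of IAP1-MM_I-int on chromosome 6 (3.65 to 9.88), and 6 DMSO values stood above their group: 0.233 CPM of ORR1C1-int on chromosome 11 in 43-5, 1.44 of MMERVK9C_I-int on chromosome 4 in 43-4, and in library 48-4 2.35 of RLTR1B-int on chromosome 1, 0.336 of RMER19B2 on chromosome 8, 2.86 of IAP1-MM_I-int and 1.01 of ETnERV2-int on chromosome 18. In 4 of the 20, all at called loci, the other 3 DMSO libraries had 0 reads, so that any read sets a library apart, and the share of 9.9% is not to be read against chance.

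TBT library 47-1 had reads at 90759 loci outside genes, against 53188 to 65202 in the other 6. Library 44-1 had the highest DMSO values of the IAP internal regions (5525 CPM, against 5035 to 5083), MYSERV6-int (3188, against 2888 to 2889), MuRRS-int (405, against 167 to 179.95) and the LTR sum of Rarb (136, against 35.6 to 49.5). Library 48-4 had the lowest DMSO value of RMER17B (2172, against 2407 to 2444) and the highest of Tdrd9 (2164, against 1583 to 1639). In the TBT group, library 45-4 had 64.9 CPM of RLTR13D3A (44.6 to 53.1) and 103.8 of Lama2 (32.7 to 59.9), library 45-3 had 2.38 of LTR27C (0.275 to 1.04) and 1076 of Dmrt1 (466 to 637), and library 47-1 had 3.18 of Dhh (0.652 to 1.65).

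The TBT effect differed between P5 and P4 cells at the MURVY-int copy on chromosome 11, by 4.67 on the log2 scale (limma interaction test, FDR 0.000413).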

How the results depend on the processing

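The number of single loci called depended on the test and on single libraries. In place of 13 higher and 0 lower, the counts were 310 and 81 by edgeR's likelihood ratio test, 116 and 24 by DESeq2, 922 and 76 with no filter, and 4 higher by edgeR's quasi-likelihood test, 4 with a pseudocount of 0.25 units, 3 with a minimum mean of 20 units, 2 where each group had to reach the minimum and 0 when libraries were averaged by first label number, where the samples are fewer. Leaving out 1 library gave 4 to 81 higher loci (81 without 48-4, 33 without 43-4 or 43-5, 20 without 44-1, 7 without 47-4, 5 without 45-4, 45-5 or 47-1, 4 without 47-3) and 0 to 13 lower ones (13 without 48-4); the other causes were not tested. All 13 loci stayed called with libraries brought to a common total, with DESeq2's size factors, with 4 units as the pseudocount, and with a random effect of the first label number, but 6 did with all F1 germline libraries in the fit and 9 of the 10 outside genes when only such loci were tested. Of the 13, 4 to 13 were still called without 1 library (9 without 44-1), and the log2 fold changes kept their direction.

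Gene sums gave 50 higher and 20 lower by the likelihood ratio test, 49 and 18 by DESeq2, 2 higher with all F1 germline libraries and 1 without 48-4 (range without 1 library 0 to 1). Species totals gave 1 lower by DESeq2. For the difference between P5 and P4 cells, the label number as a replicate block gave 8 higher, differences within label numbers 5 higher and 1 lower, a mean of at least 20 units 0, and leaving out 1 library 1 to 2 (2 without 43-5). The block changed no call of species totals. The ratio of loci outside genes with reads was 1.48 to 1.70 without 1 library, and 0.964, a reversal, for loci with at least 10 reads. The depth limits loci with few reads most.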
